A study of Sus scrofa with 26 samples.

Results

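The genes described here are 10 members of a pair of linked pathways with which cells sense foreign chemicals and reactive molecules, the aryl hydrocarbon receptor (AHR) pathway and the NRF2 pathway. They were followed in the subcutaneous adipose tissue (SCAT) of pigs. The list holds AHR, its partner ARNT, its repressor AHRR, its target genes CYP1A1, CYP1B1 and TIPARP, the gene of NRF2 (NFE2L2), its inhibitor KEAP1, and the NRF2 target genes NQO1 and GCLC. A probe was taken as a member when it was not a control and its gene name, its accession or its description in the scanner files named one of these genes, and every probe was kept apart. This rule found 24 of the 60305 probes on the array, and 9 of the 10 genes had a probe of their own, among 11789 named genes on the array. The remaining gene, AHRR, was reached only through probe O1948, whose gene name is that of PDCD6 (programmed cell death 6) and whose description names both genes, so that its signal cannot be assigned to AHRR. Of the 24 probes, 21 were well above background on enough arrays to be tested (at least 8), and 20 were so on all 26 arrays.

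The study followed the response of pig tissues to a rise in ambient temperature, with pigs of several breeds in its design. SCAT was taken from castrated male growing pigs of the Creole breed, of the Large White breed (LW) and of their cross (F1), with 1 pig per array. The thermoneutral group (TN, 24 °C) held 3 Creole, 4 F1 and 4 LW pigs and the heat stress group (HS) 5 pigs per breed, so that there were 11 TN and 15 HS arrays. The hot temperature is 30 °C in the sample labels and 32 °C, held for 5 days, in the text of the series. TN pigs were slaughtered before the temperature rose, so that temperature, day of slaughter and age at slaughter cannot be told apart. Pigs shared pens and parents that the labels do not identify. SCAT is a mixture of cells, and in it fewer cells of a type cannot be told apart from less RNA per cell.

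All levels are log2 intensities after quantile normalization, so that a difference of 1 is a doubling. Each array had from 41314 to 46185 probes well above background and no saturated spot, and the number of arrays limits the precision. The arrays lay on 5 slides that each held both temperatures. All 8 listed adipocyte markers were well above background on all 26 arrays.

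As background, AHR is a receptor of the cytoplasm that binds planar aromatic compounds, moves to the nucleus, pairs with ARNT and switches on detoxifying enzymes such as CYP1A1 and CYP1B1. TIPARP and AHRR are also switched on by AHR and in turn dampen it. NRF2 is held back by KEAP1, which marks it for degradation, and electrophiles and oxidants release it to raise enzymes that reduce quinones (NQO1), make glutathione (GCLC, the catalytic subunit of the first enzyme of its synthesis) and supply NADPH. NQO1 is a known target of both pathways. Both NRF2 and AHR are controlled largely through protein stability and location, which an array of RNA does not measure.

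The probes that carry the results are those of NQO1 and AHR, and they are shown because the probes of NQO1 moved together whereas those of AHR did not, although each set names a single gene. The first 30 bases of each 60-base probe, in the order in which the scanner files give them, are printed here together with those of the probe whose description names AHRR and PDCD6.
NQO1 A_72_P536730: gccaagtagcctctttgacctaaacttcca
NQO1 A_72_P127796: caggatgagcaaaaaagtaacaaatttggt
NQO1 A_72_P553981: tatgccatgaacttcaatcccgtcatctcc
AHR A_72_P131821: ctttgtttgccgactaagatgtcttctgga
AHR O9725: cagctgaaggaatcaagtcaaatccttcaa
AHR A_72_P180481: catgccgggctctttccagatagtagaaat
PDCD6 or AHRR O1948: agagggtttattgtgttcatttgaatatgc

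The main contrast was HS minus TN with breed as a fixed effect. NQO1, the enzyme that reduces quinones with NADPH, was lower in HS on all 3 of its tested probes, at 0.550, 0.534 and 0.523 times its TN level. AHR was higher in HS on 2 of its 3 probes, at 1.17 and 1.23 times its TN level. The probe named for PDCD6 and AHRR was lower, at 0.862 times its TN level. No probe of ARNT, CYP1A1, TIPARP, NFE2L2, KEAP1 or GCLC passed the threshold, an adjusted p under 0.05 in limma. In all, 6 of the 21 tested probes passed (28.6%), 2 higher and 4 lower, whereas 12.2% of all 44703 tested probes passed, 5.17% higher and 7.02% lower. Probes of a gene are not independent of each other, and the 6 probes stand for 3 genes with O1948 counted as AHRR. The median difference of the 21 probes was -0.03 against 0.00242 over all tested probes, and the median absolute difference was 0.101 against 0.0946.

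**Figure D1:**
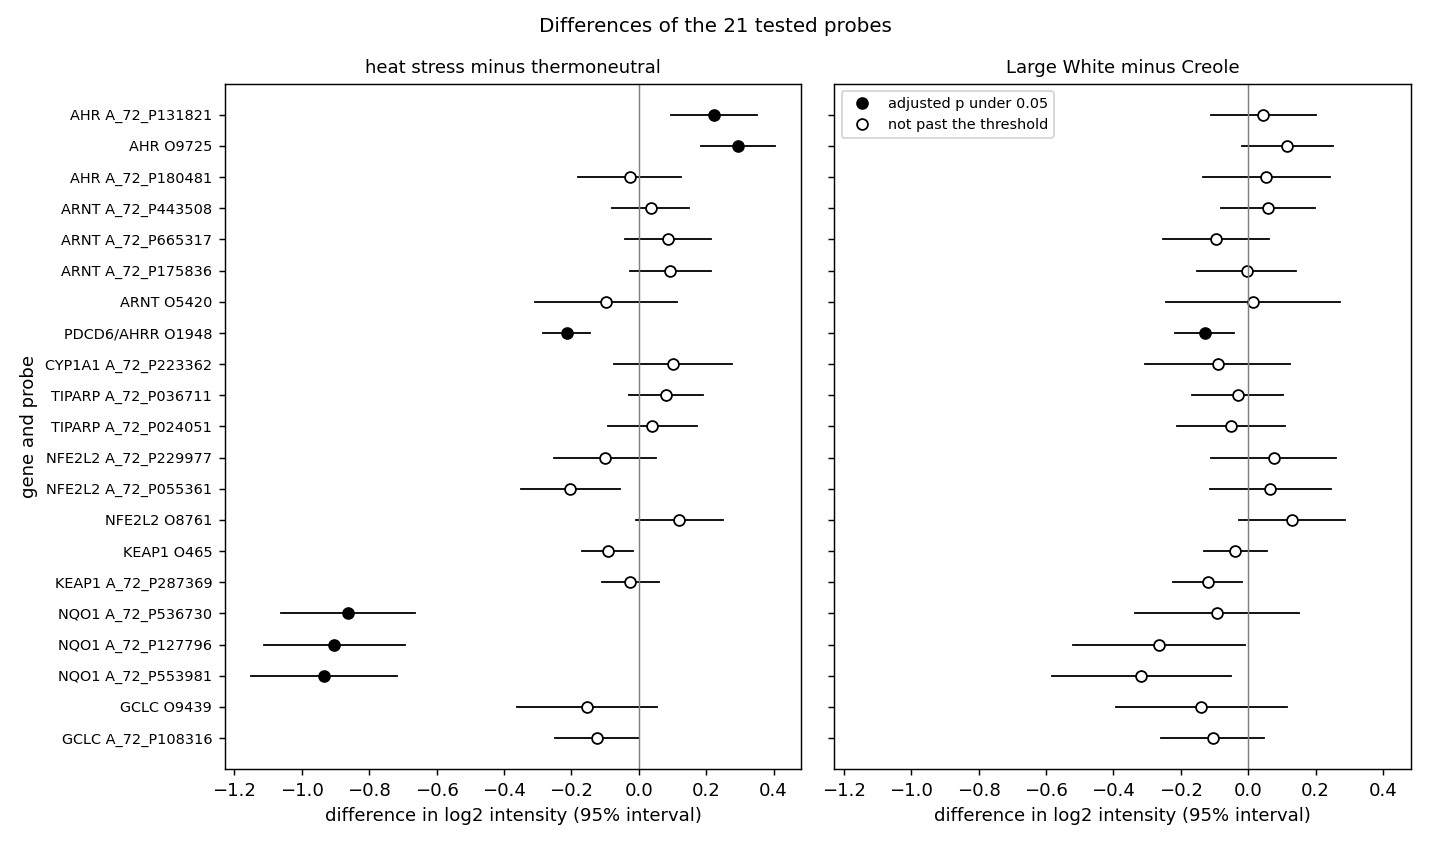
Differences in log2 intensity of the 21 tested probes, with 95% intervals, for HS minus TN on the left and LW minus Creole on the right. Filled points have an adjusted p under 0.05. On the left the 3 NQO1 probes lie at -0.86, -0.90 and -0.93, and on the right 1 probe is filled.

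NQO1 showed the largest differences among the members. On its leading probe (the one with the highest mean), A_72_P536730, the 3 Creole TN pigs were at 8.89, 9.49 and 9.82, the 4 F1 TN pigs at 9.49, 9.68, 9.75 and 9.76, and the 4 LW TN pigs at 9.31, 9.54, 9.61 and 9.996. Under HS, the 5 Creole pigs were at 8.55, 8.76, 8.77, 8.94 and 9.06, the 5 F1 pigs at 8.70, 8.72, 8.87, 8.87 and 8.90, and the 5 LW pigs at 8.21, 8.37, 8.64, 8.66 and 8.69. Every HS pig of F1 and LW was below every TN pig of its own breed, and in Creole the groups overlapped because of 1 TN pig, replicate 3, at 8.89. All 15 HS pigs were below the TN mean of their own breed, and 12 were below all 11 TN pigs. The difference was -0.86 ± 0.0967 (SE, 95% interval from -1.06 to -0.66, limma adjusted p = 2.6e-05).

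The other tested NQO1 probes moved in the same way. A_72_P127796 ran from 8.67 through a median of 9.48 to 9.73 in TN and from 7.99 through 8.53 to 8.84 in HS, a difference of -0.90 ± 0.102 (SE, limma adjusted p = 2.6e-05). A_72_P553981 ran from 7.38 through a median of 8.04 to 8.38 in TN and from 6.55 through 7.15 to 7.54 in HS, a difference of -0.93 ± 0.105 (SE, limma adjusted p = 2.6e-05). On each of them 15 of 15 HS pigs were below the TN mean of their breed and 11 were below all TN pigs. The same Creole TN pig, replicate 3, was the lowest TN pig on each of the 3 probes. After the group means were removed, the probes correlated with each other at r = 0.87 to 0.89 over 26 arrays, which share RNA and array. The remaining NQO1 probe, O14371, was well above background on 2 of 26 arrays and was not tested.

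**Figure D2:**
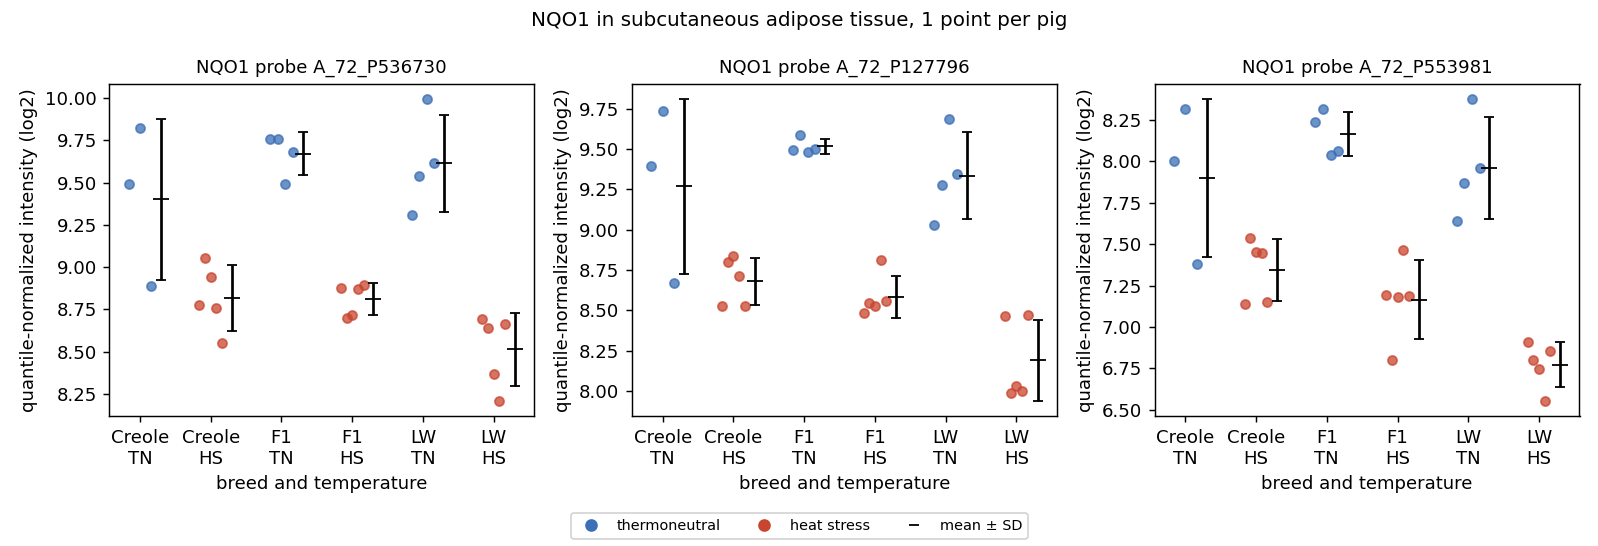
Log2 intensity of the 3 tested NQO1 probes in each pig, by breed and temperature, with the mean and SD of each group. The HS pigs of F1 and LW all lie below the TN pigs of their breed, and 1 Creole TN pig lies among the Creole HS pigs.

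Ordered by group mean on the leading probe, NQO1 was 9.67 ± 0.126 (SD, n = 4) in F1 TN, 9.61 ± 0.286 (SD, n = 4) in LW TN, 9.40 ± 0.475 (SD, n = 3) in Creole TN, 8.82 ± 0.194 (SD, n = 5) in Creole HS, 8.81 ± 0.0953 (SD, n = 5) in F1 HS and 8.52 ± 0.216 (SD, n = 5) in LW HS. The order separates the temperatures. Neighbours within TN, and Creole HS beside F1 HS, differed by less than their SDs. The 5 slides gave the same sign on all 3 probes. On the leading probe the difference between HS and TN was -0.94, -0.72, -1.08, -0.56 and -1.22 on slides 1 to 5, computed within each slide on values from which the breed effect was taken out. With slide as a fixed block the differences of the 3 probes were -0.87, -0.90 and -0.92.

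In 3 marker lists 2 or more genes were called for temperature in the same pigs, and their scores are given here because all calls above share them. To get a score, each measured gene of a list was centred on its own 26-array mean in log2 units, and the centred values were averaged. The red blood cell list had 6 markers measured, 4 of negative and 2 of positive sign in HS minus TN, with 2 called lower. The red blood cell score ran from -0.000254 to 0.46 in TN and from -0.47 to 0.28 in HS. The nerve and Schwann cell score (8 of 8 measured, 3 higher in HS) ran from -0.57 to 0.15 in TN and from -0.21 to 0.65 in HS. The score of fibroblasts and matrix (8 of 8 measured, 5 higher in HS) ran from -0.88 to 0.31 in TN and from -0.29 to 0.61 in HS. The 10 muscle markers and the 3 measured of 8 keratinocyte markers were all of positive sign, with medians of 0.57 and 0.87 and 0 called in limma. The muscle score ran from -2.49 to 1.20 in TN and from -1.46 to 2.84 in HS. Of the measured markers, 4 of 6 for red blood cells and 1 of 3 for keratinocytes were well above background on all 26 arrays. The lowest mean levels in these 2 lists were 5.96 and 5.84. All measured markers of nerve, of fibroblasts and matrix and of muscle were well above background on all arrays.

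With 1 score added to the model as a covariate, the NQO1 differences kept their direction and most of their size. They were -0.76, -0.81 and -0.79 with the red blood cell score (limma adjusted p up to 0.0145), and -0.75, -0.76 and -0.85 with the score of fibroblasts and matrix (0.000657). With the nerve score, they were -0.82, -0.90 and -0.83 and no longer passed (adjusted p = 0.0748, 0.0709 and 0.0748), in a fit that called 4 of 44703 probes against 5447 without the score. With the muscle, the adipocyte or the endothelial score the 6 probes called without a score were called again, in fits that called 16.2%, 14.3% and 14.5% of all tested probes.

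NFE2L2, which encodes NRF2 itself, did not pass on any of its 3 probes, and the probes differed in sign. The leading probe A_72_P229977 ran from 9.20 through a median of 9.38 to 9.68 in TN and from 8.995 through 9.31 to 9.61 in HS, a difference of -0.10 ± 0.0737 (SE, limma adjusted p = 0.408). A_72_P055361 ran from 7.94 through 8.14 to 8.69 in TN and from 7.81 through 7.99 to 8.27 in HS, with 14 of 15 HS pigs below the TN mean of their breed and 5 below all TN pigs. Its difference of -0.20 ± 0.0714 (SE, 95% interval from -0.35 to -0.06, limma adjusted p = 0.062) was negative on all 5 slides. It passed with array weights (adjusted p = 0.042) and with the fibroblast and adipocyte scores (adjusted p = 0.0471 and 0.0427), and also when some single arrays were left out, with adjusted p between 0.0383 and 0.116. O8761 ran from 7.71 through 8.01 to 8.27 in TN and from 7.88 through 8.17 to 8.33 in HS, a difference of 0.12 ± 0.0625 (SE, 95% interval from -0.01 to 0.25, limma adjusted p = 0.217). On O8761, 13 of 15 HS pigs were above the TN mean of their breed, so that the sign of any change in NFE2L2 RNA depended on the probe.

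**Figure D3:**
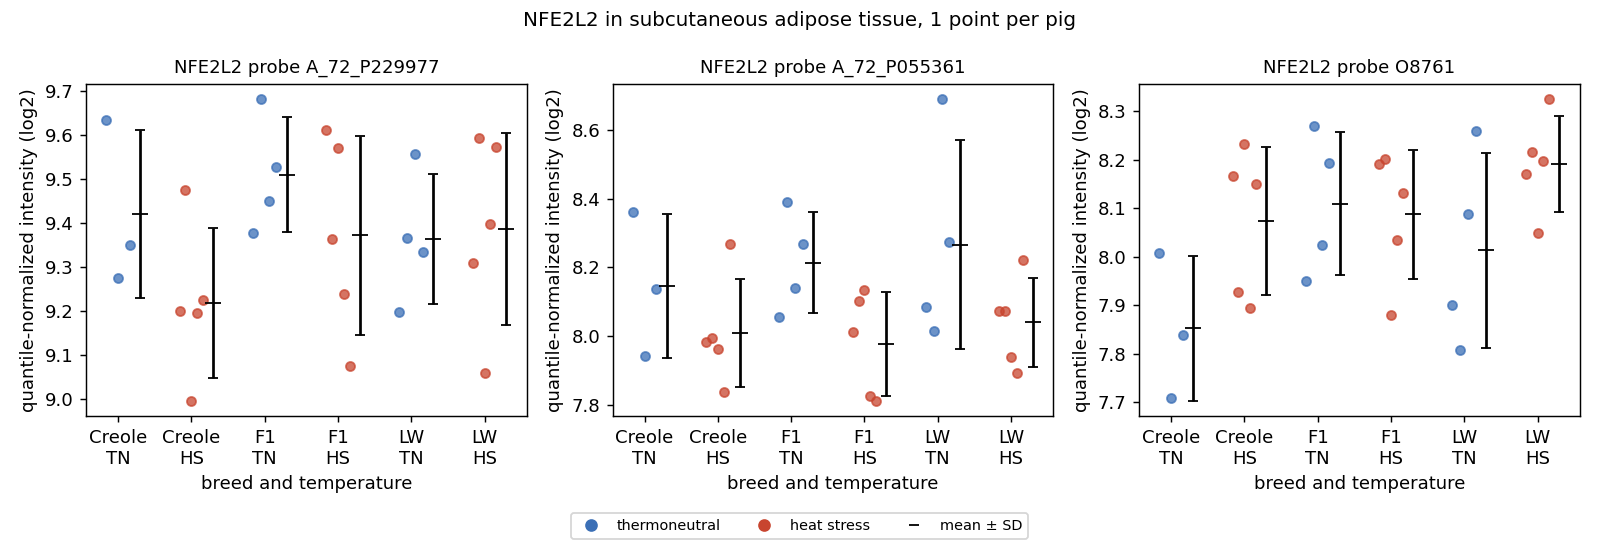
Log2 intensity of the 3 NFE2L2 probes in each pig, by breed and temperature, with the mean and SD of each group. TN and HS overlap on all 3 probes, and 14 of 15 HS pigs lie below the TN mean of their breed on A_72_P055361 and 13 of 15 above it on O8761.

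KEAP1, the adaptor that hands NRF2 to degradation, has 2 probes, and neither passed. The 11 TN pigs had a mean of 12.24 ± 0.0619 (SD) on O465, and the 15 HS pigs had 12.15 ± 0.0819 (SD). Its difference was -0.09 ± 0.0368 (SE, 95% interval from -0.17 to -0.02, limma adjusted p = 0.105), with 13 of 15 HS pigs below the TN mean of their breed. With each array scaled to its 75th percentile in place of quantile normalization, it was -0.15 and passed (adjusted p = 0.0235). A_72_P287369 differed by -0.02 ± 0.0405 (SE, 95% interval from -0.11 to 0.06, limma adjusted p = 0.745).

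GCLC, a classical NRF2 target, did not pass on either of its 2 probes. O9439 ran from 5.99 through a median of 6.15 to 6.66 in TN and from 5.76 through 6.01 to 6.72 in HS, a difference of -0.15 ± 0.101 (SE, 95% interval from -0.36 to 0.05, limma adjusted p = 0.348). A_72_P108316 differed by -0.12 ± 0.0606 (SE, 95% interval from -0.25 to 0.00, limma adjusted p = 0.188). The HS level was below the TN mean of the breed in 11 and 12 of 15 HS pigs, and the lower ends of both intervals lie above the upper ends of the intervals of all 3 NQO1 probes. Both GCLC probes were dim, near the level of CYP1A1 A_72_P223362 (5.60 to 6.58). Background was not subtracted, which shrinks log2 differences at low levels, so GCLC and the brighter NQO1 probes are not compared like for like. The GCLC probes correlated at r = 0.75 over 26 arrays after the group means were removed.

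AHR, the receptor, was higher in HS on its leading probe and on O9725. The leading probe A_72_P131821 ran from 8.35 through a median of 8.47 to 8.57 in TN and from 8.35 through 8.75 to 8.90 in HS, and 11 of 15 HS pigs lay above all TN pigs. The 5 Creole HS pigs were at 8.35, 8.41, 8.45, 8.74 and 8.90, on both sides of the Creole TN pigs at 8.47, 8.54 and 8.57. The difference was 0.22 ± 0.0619 (SE, 95% interval from 0.10 to 0.35, limma adjusted p = 0.0191). It was positive on all 5 slides, from 0.07 to 0.40.

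O9725 gave the more even result. The 3 Creole TN pigs were at 7.91, 8.16 and 8.18, the 4 F1 TN pigs at 8.06, 8.12, 8.17 and 8.24, and the 4 LW TN pigs at 8.04, 8.06, 8.13 and 8.13. Under HS the 5 Creole pigs were at 8.09, 8.19, 8.23, 8.40 and 8.49, the 5 F1 pigs at 8.32, 8.38, 8.41, 8.45 and 8.59, and the 5 LW pigs at 8.32, 8.397, 8.40, 8.56 and 8.69. F1 and LW did not overlap between temperatures and Creole did. All 15 HS pigs were above the TN mean of their breed, 12 were above all TN pigs, and the difference was 0.29 ± 0.0536 (SE, 95% interval from 0.18 to 0.40, limma adjusted p = 0.00108).

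The third AHR probe, A_72_P180481, did not follow the others. It ran from 6.03 through a median of 6.36 to 6.82 in TN and from 6.14 through 6.33 to 6.61 in HS, a difference of -0.03 ± 0.0745 (SE, 95% interval from -0.18 to 0.13, limma adjusted p = 0.856). The upper end of that interval lies below the estimates of the other AHR probes. This probe was the dimmest of the 3, nearer in level to the untested CYP1A1 probe A_72_P443804 (4.99 to 5.59). Background was not subtracted, which shrinks log2 differences at low levels, so the 3 probes are not compared like for like. After the group means were removed A_72_P180481 correlated with the leading probe at r = 0.39 and with O9725 at r = 0.11 over 26 arrays, whereas these correlated with each other at r = 0.60. The mean of the 3 probes was higher in HS by 0.16 ± 0.0529 (SE, limma adjusted p = 0.0456). With the red blood cell score as a covariate the leading probe and O9725 were higher in HS by 0.16 and 0.23 (limma adjusted p = 0.442 and 0.157), in a fit that called 130 of 44703 probes (0.291%) against 5447 without the score. With the nerve score they were higher by 0.12 and 0.28 (adjusted p = 0.606 and 0.138), in the fit that called 4 probes. The score of fibroblasts and matrix gave 0.21 and 0.24 (adjusted p = 0.126 and 0.0297), in a fit that called 1500 probes (3.36%).

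**Figure D4:**
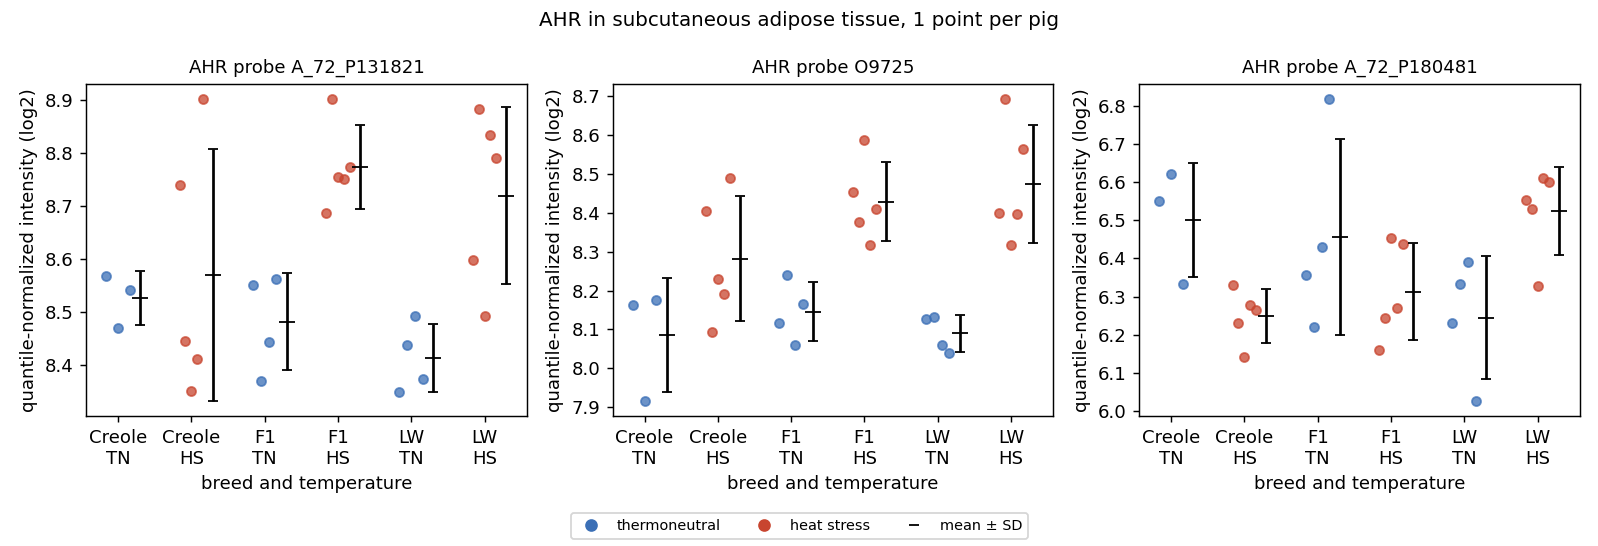
Log2 intensity of the 3 AHR probes in each pig, by breed and temperature, with the mean and SD of each group. On O9725 the F1 and LW pigs separate by temperature, and on A_72_P180481 the HS mean lies below the TN mean in Creole and above it in LW.

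Ordered by group mean on the leading probe, AHR was 8.77 ± 0.0789 (SD, n = 5) in F1 HS, 8.72 ± 0.168 (SD, n = 5) in LW HS, 8.57 ± 0.239 (SD, n = 5) in Creole HS, 8.53 ± 0.0513 (SD, n = 3) in Creole TN, 8.48 ± 0.0918 (SD, n = 4) in F1 TN and 8.41 ± 0.0648 (SD, n = 4) in LW TN. Each group differed from the next in this order by less than the larger of their SDs. ARNT, the partner that AHR needs to bind DNA, has 4 probes, and none passed. Their HS minus TN differences were 0.03 (A_72_P443508), 0.09 (A_72_P665317), 0.09 (A_72_P175836) and -0.10 (O5420), with adjusted p = 0.729, 0.397, 0.309 and 0.585. On O5420 1 F1 TN pig, replicate 1, was at 7.45, far above the other 3, and without that pig the difference was -0.00520.

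Of the AHR targets, CYP1A1, an oxidase that is hardly expressed in most tissues unless AHR is activated, was dim. Its probe A_72_P223362 was well above background on 23 of 26 arrays. It ran from 5.60 through a median of 5.98 to 6.12 in TN and from 5.64 through 6.02 to 6.58 in HS, a difference of 0.10 ± 0.0856 (SE, limma adjusted p = 0.481). The groups overlapped, and 4 HS pigs lay above all TN pigs. Its other probe, A_72_P443804, was well above background on 1 array. CYP1B1, a related oxidase, has 1 probe, O8999, which was well above background in 2 pigs only. Creole TN replicate 3 was at 7.43 and LW HS replicate 3 at 7.33, while the other 24 pigs lay between 4.88 and 5.42, so that the bright pigs were 1 of each temperature.

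TIPARP, an enzyme that adds ADP-ribose to proteins and lowers AHR activity, did not pass on either of its 2 probes. A_72_P036711 ran from 7.40 through a median of 7.53 to 7.60 in TN and from 7.35 through 7.57 to 7.87 in HS, a difference of 0.08 ± 0.0534 (SE, limma adjusted p = 0.352). The HS pigs spread wider than the TN pigs, with 7 above and 2 below all of them. A_72_P024051 differed by 0.04 ± 0.0639 (SE, limma adjusted p = 0.735).

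The probe O1948 carries the gene name of PDCD6, a calcium-binding protein, and belongs here only through its description. The 3 Creole TN pigs were at 12.96, 13.00 and 13.06, the 4 F1 TN pigs at 12.98, 13.06, 13.09 and 13.12, and the 4 LW TN pigs at 12.92, 12.95, 13.01 and 13.06. Under HS the 5 Creole pigs were at 12.85, 12.90, 12.92, 12.96 and 12.96, the 5 F1 pigs at 12.72, 12.75, 12.80, 12.84 and 12.85, and the 5 LW pigs at 12.65, 12.70, 12.71, 12.74 and 12.80. No breed overlapped between temperatures, though in Creole the highest HS and the lowest TN pig were nearly level. The difference was -0.21 ± 0.0345 (SE, 95% interval from -0.29 to -0.14, limma adjusted p = 0.000445), with 15 of 15 HS pigs below the TN mean of their breed. It was -0.20 with the red blood cell score (adjusted p = 0.0627) and -0.18 with the nerve score (0.129), and neither passed, in the fits that called 130 and 4 of all tested probes. With the score of fibroblasts and matrix it was -0.22 and passed. Which of the transcripts this probe detects was not tested.

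Between breeds, LW minus Creole was estimated with temperature as a fixed effect, and few members differed. Of the 21 probes 1 passed (4.76%), O1948, whereas 14.3% of all tested probes passed, 6.89% higher in LW and 7.43% lower. O1948 was 12.95 ± 0.0612 (SD, n = 8) in Creole and 12.84 ± 0.150 (SD, n = 9) in LW, with 5 of 9 LW pigs below all Creole pigs, and its difference was -0.13 ± 0.0422 (SE, limma adjusted p = 0.0402). The call was lost with slide as a fixed block, with normexp background correction and without a filter on dim probes. It was also lost with the fibroblast, muscle, nerve, adipocyte or endothelial score as a covariate. Leaving out 1 array at a time, the adjusted p ran from 0.0244 to 0.0807 and missed the threshold for 12 of 26 arrays. The 3 NQO1 probes differed by -0.09, -0.26 and -0.32 (adjusted p = 0.652, 0.158 and 0.1). On leaving out 1 array at a time, A_72_P127796 and A_72_P553981 passed in limma for 1 and 2 of 26 arrays (smallest adjusted p = 0.0102 and 0.00926). Without Creole TN replicate 3, the lowest TN pig on the NQO1 probes, 3 member probes passed. The 3 NFE2L2 probes differed by 0.08, 0.07 and 0.13 (adjusted p = 0.623, 0.664 and 0.268), the GCLC probes by -0.14 and -0.11 (adjusted p = 0.489 and 0.365), and KEAP1 O465 and A_72_P287369 by -0.04 and -0.12 (adjusted p = 0.624 and 0.106). All probes of AHR, ARNT, CYP1A1 and TIPARP lay between -0.10 and 0.12. The cross set against the midpoint of its parents' breeds passed in limma on 0 member probes and on 0.00671% of all probes. At an unadjusted p under 0.05 there was 1 of 21 (4.76%), ARNT A_72_P443508, at -0.13 (limma adjusted p = 0.525), and 8.69% of all tested probes.

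Within breeds, limma on the 6 group means called 0 member probes in Creole, 4 in F1, all lower in HS, and 5 in LW, 1 higher and 4 lower. Over all tested probes, 0.0716% passed in Creole, 0.421% in F1 and 1.5% in LW. At an unadjusted p under 0.05 there were 4 of 21 member probes in Creole (19%), and 4975 of all 44703 tested probes (11.1%). The probes lower in HS were the 3 of NQO1 and O1948 in F1 and again in LW, and the probe higher in LW was AHR O9725, at 0.39 ± 0.0903 (SE, limma adjusted p = 0.0323). The mean of the 3 AHR probes did not pass in LW, at 0.32 ± 0.0807 (SE, limma adjusted p = 0.0508). Without F1 TN replicate 1 or 2, or F1 HS replicate 2 or 5, 0 member probes and 0 of all tested probes passed in F1, and without F1 HS replicate 3 there were 1 and 16. Without LW TN replicate 3, the member count in LW was 3. With slide as a fixed block, 0 member probes passed in F1 and 3 in LW, where 4 and 114 of all tested probes did. With the red blood cell score 0 member probes passed in either breed, where 0 and 1 of all tested probes did.

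The NQO1 leading probe differed between HS and TN by -0.58 in Creole (95% interval from -0.93 to -0.24, limma adjusted p = 0.188), by -0.86 in F1 (from -1.18 to -0.54, adjusted p = 0.0261) and by -1.10 in LW (from -1.42 to -0.78, adjusted p = 0.00147). The Creole estimate rests on 3 TN pigs, among them replicate 3, the lowest TN pig on each NQO1 probe. The estimates were ordered Creole, F1 and LW on all 3 probes, yet the interaction of breed and temperature passed on 0 member probes in limma and on 0.00224% of all probes. Its unadjusted p for NQO1 was 0.0998, 0.0835 and 0.0408 on the 3 probes, with an adjusted p of 0.897 on each, so that a difference between breeds in the response of NQO1 was not shown. Of the members, 3 of 21 probes (14.3%) had an unadjusted interaction p under 0.05, the others being O1948 and AHR A_72_P180481, and 5.23% of all tested probes had one.

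AHR A_72_P180481 had the smallest interaction p of the members, 0.00425 before adjustment and 0.897 after. In Creole it was at 6.33, 6.55 and 6.62 in TN and at 6.14, 6.23, 6.26, 6.28 and 6.33 in HS, a difference of -0.25 ± 0.113 (SE, limma adjusted p = 0.407). In LW it was at 6.03, 6.23, 6.33 and 6.39 in TN and at 6.33, 6.53, 6.55, 6.60 and 6.61 in HS, a difference of 0.28 ± 0.104 (SE, limma adjusted p = 0.169). The other AHR probes had no such change of sign. On O9725 the breeds Creole, F1 and LW had differences of 0.20, 0.28 and 0.39, and on the leading probe 0.04, 0.29 and 0.31.

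Other genes of the pathways were taken from 6 lists of 61 genes, of which 49 had a tested probe, and the leading probe stood for each gene. Over the leading probes of all 10154 named genes, 4.89% were higher and 7.65% lower in HS, with a median difference of -0.00474. Of the 7 measured partners and regulators of AHR, 1 was higher in HS, NCOA2, a coactivator of nuclear receptors (0.24 ± 0.0495, SE, limma adjusted p = 0.00277), 0 were lower, and the median was 0.11. Of the 6 measured AHR targets and enzymes of xenobiotic metabolism, 2 were higher and 1 lower, with a median of -0.11. The higher ones were VEGFA, a growth factor of vessels (0.38, adjusted p = 0.02), and NFIL3, a transcription factor of the circadian clock and of immune cells (0.36, adjusted p = 0.0398). The lower one was POR, the reductase that feeds electrons to cytochromes P450 (-0.46 ± 0.0956, SE, limma adjusted p = 0.0028), and its 3 other probes had the same sign.

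Of the 10 measured partners and regulators of NRF2, 0 passed in either direction in limma, with adjusted p of at least 0.0665, and their median was 0.000811. Of the 11 measured NRF2 targets of glutathione and thioredoxin metabolism, 1 was higher and 2 lower, with a median of -0.17. The lower ones were GSR, which recycles oxidised glutathione (-0.29 ± 0.0701, SE, limma adjusted p = 0.00766), and SRXN1, which restores peroxiredoxins (-0.50 ± 0.127, SE, limma adjusted p = 0.0108). The higher one was MGST1, a glutathione transferase of membranes (0.29, adjusted p = 0.00452), and 0 of its 7 other probes had that sign.

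In the list of NRF2 targets for NADPH, iron and heme, 6 of 10 genes were lower and 1 higher in HS, with a median of -0.30. The 4 with the smallest adjusted p were BLVRB, a biliverdin and flavin reductase (-0.56 ± 0.0859, SE, limma adjusted p = 0.000279), PGD, an NADPH-forming enzyme of the pentose phosphate pathway (-0.49, adjusted p = 0.000953), TKT, the transketolase of that pathway (-0.35, adjusted p = 0.00114), and ME1, malic enzyme (-1.30 ± 0.247, SE, limma adjusted p = 0.00141). PGD and ME1 also supply NADPH for fatty acid synthesis in adipose tissue. The higher one, named after its value was seen, was FTL, the light chain of ferritin (0.27, adjusted p = 0.00956). None of the 5 other xenobiotic receptors passed in limma, with adjusted p of at least 0.0643. With the red blood cell score or the nerve score as a covariate, 0 genes of these 6 lists passed for HS minus TN, in the fits that called 130 and 4 of all tested probes. The median of the list of NADPH, iron and heme was then -0.19 and -0.29. With the score of fibroblasts and matrix, 4 genes of that list passed, 1 higher and 3 lower, and its median was -0.23, in the fit that called 1500 of all tested probes (3.36%). NCOA2 passed too, whereas 0 genes of the AHR target list and 0 of the glutathione and thioredoxin list did, so that VEGFA, NFIL3, POR, GSR, SRXN1 and MGST1 were no longer called (limma adjusted p from 0.0539 for MGST1 to 0.13 for NFIL3).

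**Figure D5:**
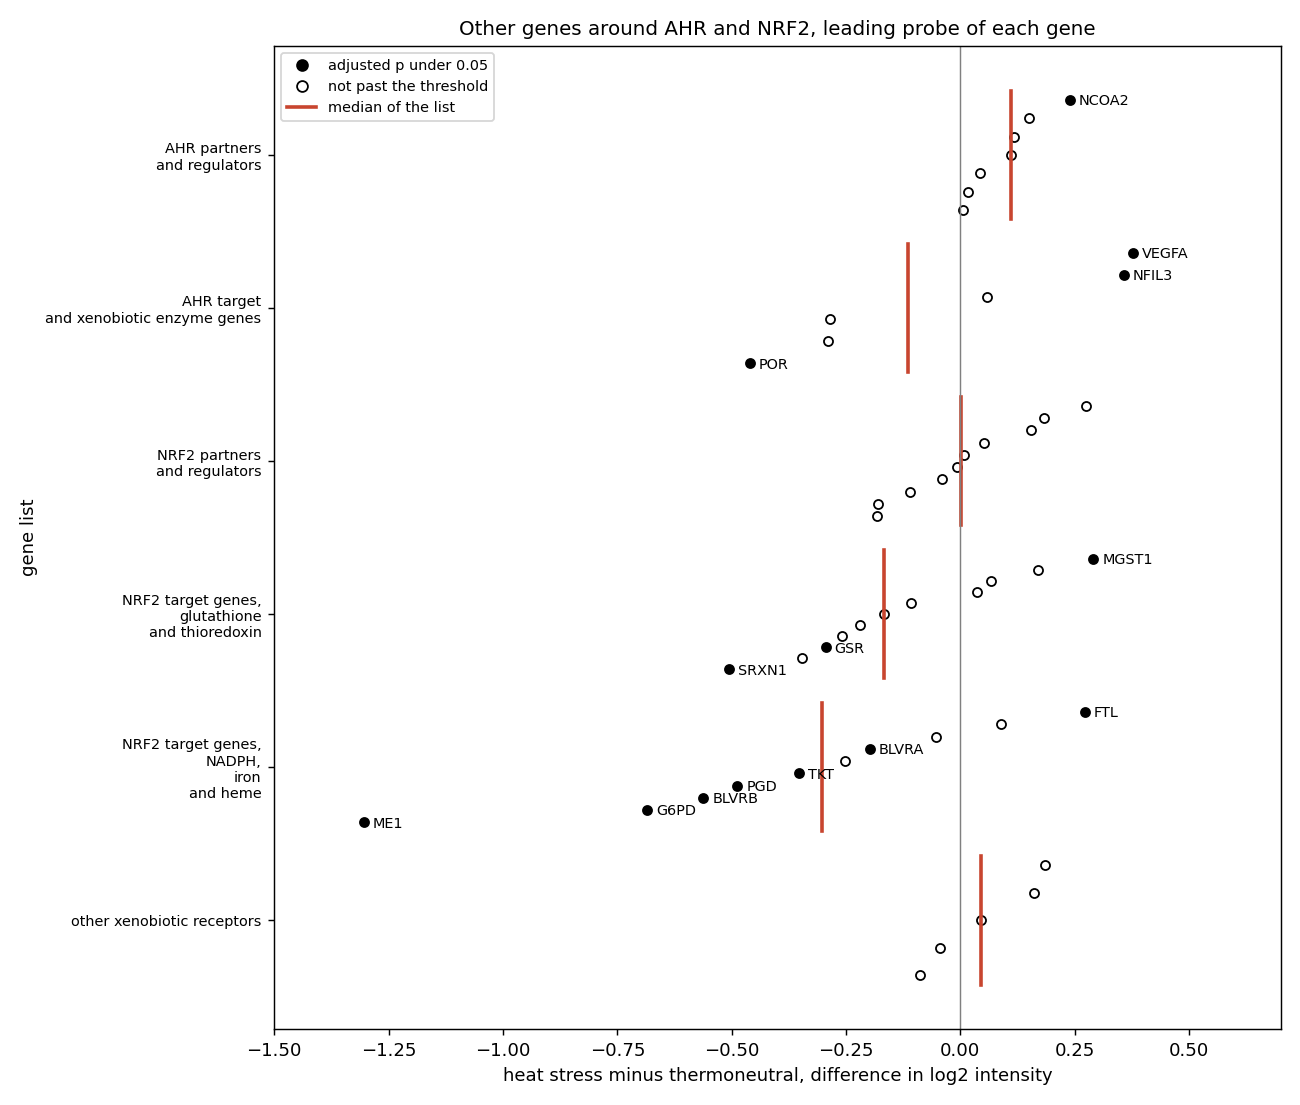
HS minus TN difference in log2 intensity of 49 other genes of the AHR and NRF2 pathways, by list, with 1 leading probe per gene. Filled points have an adjusted p under 0.05, and the bars are medians, which run from -0.30 for the list of NADPH, iron and heme to 0.11 for the partners of AHR.

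Between LW and Creole, 6.67% of the leading probes of named genes were higher in LW and 8.61% lower. In the list of NADPH, iron and heme 6 of 10 genes were lower in LW and 0 higher, with a median of -0.36 against -0.00884 over all leading probes. The 4 with the smallest adjusted p were TALDO1, the transaldolase of the pentose phosphate pathway (-0.70, adjusted p = 0.00113), TKT (-0.43, adjusted p = 0.00125), BLVRA, a biliverdin reductase (-0.29, adjusted p = 0.0115), and PGD (-0.40, adjusted p = 0.0138). Of the glutathione and thioredoxin list, PRDX1, a peroxiredoxin (-0.73, adjusted p = 0.0033), and GCLM, the modifier subunit that pairs with GCLC (-0.55, adjusted p = 0.00874), were lower in LW. MGST1 was higher by 0.29 (adjusted p = 0.0162), with 1 of its 7 other probes of the same sign. CYP1A2, a close relative of CYP1A1 (0.84 ± 0.260, SE, limma adjusted p = 0.0317), and NFE2L3, a relative of NFE2L2 (0.81 ± 0.223, SE, limma adjusted p = 0.0163), were higher in LW, each on its only tested probe. PTGES3, a cochaperone of AHR, was higher by 0.21 (adjusted p = 0.013).

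Scores of 6 marker lists are given beside these differences, since their markers lay mostly on one side between LW and Creole. The adipocyte score ran from 0.000299 to 0.43 in Creole and from -0.24 to 0.04 in LW, so that the breeds overlapped little, with 7 of 8 markers of negative sign and 1 called lower. The called one, named after its value was seen, was LEP, the gene of leptin (-1.23, adjusted p = 0.0438). With this score as a covariate 2 genes of the list of NADPH, iron and heme passed, at a list median of -0.18, in a fit that called 1108 of all tested probes (2.48%) against 6401 (14.3%) without it. The endothelial score ran from -0.40 to 0.11 in Creole and from -0.07 to 0.20 in LW, with 1 of 7 markers called higher, and with it 2 genes of that list passed at a median of -0.21, in a fit that called 1474 probes (3.3%). The score of fibroblasts and matrix ran from -0.88 to 0.29 in Creole and from -0.09 to 0.61 in LW, with 4 of 8 markers called higher, and with it 1 gene of that list passed at a median of -0.19, in a fit that called 679 probes (1.52%). With the adipocyte or the fibroblast score 0 genes of the other 5 lists passed, and with the endothelial score 1 did. The muscle score ran from -1.46 to 2.84 in Creole and from -2.49 to 1.95 in LW, with all 10 markers of negative sign, 0 called and a median of -0.93. The keratinocyte score ran from -1.64 to 1.73 in Creole and from -1.31 to 2.27 in LW, with all 3 measured of 8 markers of positive sign, 0 called and a median of 0.76, and its part in these values was not tested. The nerve score ran from -0.41 to 0.22 in Creole and from -0.41 to 0.65 in LW, with 2 of 8 markers called higher. With the muscle or the nerve score 4 genes of the list of NADPH, iron and heme passed, all lower, at medians of -0.34 and -0.36, in fits that called 9.04% and 9.15% of all tested probes. MGST1 did not pass with either score, at 0.24 and 0.21 (adjusted p = 0.0534 and 0.11), and CYP1A2 did not pass with the muscle score, at 0.81 (adjusted p = 0.0682).

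After the group means were removed, the leading probes of 9985 named genes were set against those of AHR and NFE2L2 over the 26 arrays. The closest to AHR were TEX261, SLAMF9 and APOA2, with r = 0.77, 0.73 and 0.69, and the most opposed were RAMP1, SKIV2L and SRI, with r = -0.77, -0.75 and -0.73. For NFE2L2 the closest were AMDHD1, LRIF1 and GSC, with r = 0.76, 0.74 and 0.72, and the most opposed were MTX2, GDE1 and RAD23B, with r = -0.77, -0.73 and -0.73. These are the extremes of many genes measured on shared arrays and describe these arrays only. Among the members, the NQO1 leading probe correlated with the 3 NFE2L2 probes at r = 0.24, 0.19 and 0.11 and with the AHR leading probe, O9725 and A_72_P180481 at r = -0.19, -0.28 and 0.22.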

How the data were processed

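RNA of SCAT from 26 pigs was hybridised with 1 colour (Cy3), 1 pig per array, on a porcine 60-base oligonucleotide array. The authors scanned the arrays and extracted spots with Agilent Feature Extraction 10.10.1.1. The deposited scanner files hold raw intensity per spot (median, mean and local background) and a processed intensity, together with flags for spots well above background, saturated or non-uniform. The authors also deposited log2 values of the same arrays, quantile-normalized between them, which served as an alternative.

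Median intensities were quantile-normalized and log2-transformed here with R 4.3.3, limma 3.58.1 and data.table (version 1.17.8). Spots flagged as non-uniform were left out, and the spots of a repeated probe were averaged. A probe had to exceed background clearly on 8 or more arrays to be tested with limma (lmFit and eBayes with an intensity trend), with Benjamini-Hochberg adjustment over all 44703 probes and a threshold of 0.05. Groups came from the labels, and replicate numbers were given here in the order of the samples. Breed and temperature were fixed effects, whereas pen, day of slaughter and parents, which the study's model holds as random effects, were left out because the labels do not give them. P-values come from the spread between pigs, which were treated as independent. Pigs shared pens and litters, so the p-values may be too small. The fit was also run on simulated data in which pigs were independent. That simulation held no pens, litters, slaughter days or slides, so it cannot test the calls made here.

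Gene names came from the scanner files and from RefSeq names (Sscrofa11.1, names only), and probes were not realigned. Members and lists were chosen with earlier results of these data known. All member probes were reported. From the wider lists, counts and at most the 4 called genes with the smallest adjusted p per list and contrast were named, and for the leading probes of AHR and NFE2L2 the 3 genes with the highest and the 3 with the lowest correlation. Alternatives were 75th percentile scaling, normexp background correction (offset 50), the series table, other filters on dim probes, slide as a fixed or random block, array weights, no intensity trend, the red blood cell score as a covariate, the mean over the probes of a gene, and leaving out each array. Scores of fibroblasts, muscle, nerve, adipocytes and endothelium as covariates, and all scores as covariates for the wider lists, were added after seeing the data.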

Additional observations from a re-analysis of the deposited data

Results flagged for a closer look

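In groups of 4 or 5 arrays, a value was singled out when its gap to the nearest other array was a large part of the range of the group (Dixon's test). This picked 10 of the 120 groups examined over the 24 member probes, and chance picks about 1 in 20. For AHR A_72_P180481, LW HS replicate 3 was at 6.327. For ARNT, Creole HS replicate 1 was at 8.635 on A_72_P665317 and F1 TN replicate 1 at 7.448 on O5420. For CYP1A1 A_72_P223362, F1 HS replicate 1 was at 6.417. For CYP1B1 O8999, LW HS replicate 3 was at 7.329, the only array of that group well above background. For TIPARP A_72_P024051, Creole HS replicate 3 was at 6.112 and LW HS replicate 5 at 6.644. For NQO1 A_72_P127796, F1 HS replicate 4 was at 8.81 and F1 TN replicate 2 at 9.585. For GCLC O9439, Creole HS replicate 3 was at 6.718.

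On 2 probes, every HS pig of a breed lay on one side of its TN mean and every HS pig of another breed on the other side. This rule sets no lower limit on the size of a difference. Its share among all tested probes was not counted, so whether 2 member probes is many or few cannot be said. AHR A_72_P180481 differed between HS and TN by 0.279 within LW and by -0.251 within Creole. ARNT A_72_P443508 differed by 0.105 within F1 and by -0.034 within LW. The difference between these pairs of breeds was not tested by itself. The interaction over all 3 breeds had limma adjusted p = 0.897 and 0.933.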

How the results depend on the processing

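Of the 6 probes called for HS minus TN, 3 were called with the red blood cell score as a covariate, and 0 with the nerve score in limma, where calls over all tested probes fell from 5447 (12.2%) to 130 (0.291%) and 4 (0.00895%). Leaving out each array in turn gave 6 to 7. For LW minus Creole, with 14.3% of all tested probes called, the count of 1 became 2 with 75th percentile scaling (15.1%). It became 0 with normexp (14.7%), without a filter on dim probes (9.21%), with slide as a fixed block (13.5%), and with the muscle (9.04%), nerve (9.15%), endothelial (3.3%), adipocyte (2.48%) or fibroblast score (1.52%), and leaving out each array gave 0 to 3. It was 3 without Creole TN replicate 3 and 2 without LW TN replicate 3. Within F1 the count of 4 became 0 with slide as a fixed block and 0 with the red blood cell score, and leaving out each array gave 0 to 4. Within LW the count of 5 became 3 and 0 under these settings, and ran from 3 to 5. With the mean of the probes of a gene, 2 member genes were called within LW against 3, and AHR was the one lost. The counts for F1 against its parents' breeds, within Creole and for the interaction were 0 in every setting run. The fibroblast, muscle, nerve, adipocyte and endothelial scores were chosen after seeing the data, and the causes of these changes were not tested.

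Only probes that had not passed changed sign. For HS minus TN these were AHR A_72_P180481 (0.0603 with 75th percentile scaling, 0.0163 with the fibroblast score, and -0.0676 to 0.0177 on leaving out each array), KEAP1 A_72_P287369 (0.0147 with the fibroblast score) and, with the nerve score, ARNT O5420 (0.0123), TIPARP A_72_P024051 (-0.128) and NFE2L2 A_72_P229977 (0.0115). For LW minus Creole, ARNT A_72_P175836 was 0.0791 with 75th percentile scaling, 0.0212 with normexp and 0.00470 with the red blood cell score, and -0.0412 to 0.0361 on leaving out each array. ARNT O5420 was -0.0545 with the fibroblast score and -0.0294 to 0.0654 on leaving out each array. With the fibroblast score NFE2L2 A_72_P055361 was -0.0543, NQO1 A_72_P536730 was 0.0649 and GCLC O9439 was 0.0469. With the adipocyte score AHR A_72_P131821 was -0.0276, ARNT O5420 was -0.0851, NFE2L2 A_72_P229977 and A_72_P055361 were -0.0978 and -0.0611, KEAP1 O465 was 0.00795 and GCLC O9439 was 0.0761. With the endothelial score AHR A_72_P131821 and A_72_P180481 were -0.0504 and -0.0424, ARNT A_72_P175836 and O5420 were 0.00486 and -0.0246, TIPARP A_72_P024051 was 0.0120, NFE2L2 A_72_P229977 was -0.0133 and NQO1 A_72_P536730 was 0.0669. With the nerve score AHR A_72_P131821 was -0.0131, AHR A_72_P180481 was -0.0709 and ARNT A_72_P665317 was 0.00690.

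No paired analysis was possible because the labels carry no replicate numbers and do not identify the litters in which the study blocked its pigs. The replicate numbers used here only name the arrays of a group.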
